A study of Homo sapiens with 4 samples.

Results

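The thioredoxin and peroxiredoxin system was described through 10 genes, TXN, TXN2, TXNRD1, TXNRD2, TXNIP, PRDX1, PRDX2, PRDX3, PRDX6 and SRXN1, out of 19775 genes that could be read from the arrays. The genes were listed by name, and every probe set that the array annotation gives them was used, 21 in all, each naming 1 gene alone. Probe sets are the array's groups of short probes, each made for a transcript. Huh7 and Hep3B, 2 established human hepatocellular carcinoma (HCC) lines, were treated with arsenic trioxide (ATO, 3 μM for 7 days) or with DMSO as the negative control (NC). Each of the 4 conditions had 1 deposited profile on Affymetrix Human Genome U133 Plus 2.0 arrays, so a ratio within a line has no error of its own, and the number of profiles limits the precision.

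Thioredoxin is a small protein whose paired cysteines reduce disulfides in other proteins. Thioredoxin reductases, which carry selenocysteine, recharge it with electrons from NADPH. Peroxiredoxins destroy hydrogen peroxide, and most of them, though not PRDX6, are in turn recharged by thioredoxin. Sulfiredoxin rescues some peroxiredoxins that have been over-oxidised, and TXNIP binds and inhibits thioredoxin. Trivalent arsenic binds neighbouring thiols, and thioredoxin reductase is among the proteins it is known to inhibit. Several genes of this system are textbook targets of NRF2, the transcription factor of the antioxidant response, which acts through antioxidant response elements in DNA.

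The deposited intensities are linear. The median of a profile lay between 15.8 and 16.3, and the median of the probe sets' means was 17.3. A probe set with a mean under that value is called dim here, since no detection call was used. For GAPDH and ACTB, the log2 difference between 3' and 5' control probe sets changed by at most 0.07 between ATO and NC within a line. The difference itself was 0.14 to 0.27 for GAPDH but 2.06 to 2.14 for ACTB, whose 3' probe set was thus much brighter in all profiles. Poly-A control transcripts, which are added to the RNA before labelling, had median log2 ratios of ATO over NC of -0.28 in Huh7 and -0.23 in Hep3B over 24 probe sets, and their part in the results was not tested. SERPINA1, TF and APOB, secreted liver proteins, had intensities of 4026 or more in all profiles, as the label of HCC cells calls for. However, AFP, an oncofetal liver protein that both lines are known to secrete, was at 91.8 (NC) and 62.1 (ATO) in the profiles labelled Huh7 against 3566 and 1646 in those labelled Hep3B. ALB was at 155 and 358 against 12803 and 10730, and TTR at 48.1 and 32.8 against 1704 and 1983, so these 3 of the 8 liver markers were low under the Huh7 label. APOA1, another secreted liver protein, was at 1046 and 970 against 4240 and 2524, whereas FGB, a fibrinogen chain, went the other way, at 1012 and 762 against 210 and 590. The line names are used as labelled, and each result is given per line. Of the markers of other cell types, COL1A2, COL3A1, VWF, CDH5, PTPRC and CD3E were at 17.1 or less in every profile, CD14 was at 10.5 to 22.0, PECAM1 at 16.2 to 20.5 and COL1A1 at 54.5 to 76.4.

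TXNRD1 and SRXN1 had the largest ratios of ATO over NC among the 10 genes in both lines, while thioredoxin and the peroxiredoxins were within the thresholds by their brightest probe sets. A gene was counted as higher above a ratio of 1.5 and as lower below 0.67, the thresholds used throughout, and each gene was read from its brightest probe set. In Huh7, 2 of the 10 genes were higher, against 3.21% of all genes, and 1 was lower, against 3.25%. In Hep3B, 2 were higher, against 5.04% of all genes, and 0 were lower, against 4.02%. TXNRD1 and SRXN1 were higher in both lines, where 0.804% of all genes were, and 0 of the 10 were lower in both lines, where 0.587% of all genes were. Within the thresholds in both lines were 7 of the 10 genes and 17047 of all 19775 genes. At any size, 6 of the 10 were above NC in both lines, TXN2 was below it in both, and TXNIP, PRDX2 and PRDX3 had opposite directions. Over all genes, 32.0% were above and 24.7% below in both, and 42.9% had opposite directions. With the mean of each gene's probe sets, PRDX2 alone of the 10 had opposite directions. Median centring of the profiles moved PRDX2 to 0.993 in Huh7 and thus below NC in both lines. The median of the 10 log2 ratios was 0.09 (Huh7) and 0.22 (Hep3B), beside 0.01 and 0.04 over all genes. Without probe sets ending in _x_at or _s_at, which left 8 of the 10, the Hep3B median was -0.06.

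The test across genes took the 2 lines as replicates of the treatment, with 1 residual degree of freedom. It was run with limma on log2(intensity + 16), a scale that understates changes of dim genes, with the cell line in the model. It called 0 of the 10 genes and 0% of all genes at an adjusted p of 0.05 (Benjamini-Hochberg over 19775 genes). The smallest adjusted p of any gene was 0.506. TXNRD1, SRXN1, PRDX1 and TXN2 shared it with other genes, among them AFP and COL1A1, so it does not rank them. Without adjustment, 1036 of the 19775 genes were higher and 850 lower at the same threshold, and TXNRD1, SRXN1, PRDX1, TXN2 and TXNRD2 were among them. These names depended on the setting. Without the offset (992 genes higher and 860 lower), TXNRD1 and SRXN1 alone of the 10 were among them. The same 2 were with dim genes left out (692 higher and 669 lower). Without the cell line in the model (200 higher and 134 lower), TXN2 alone was. The lines may differ in their response, and p-values rest only on spread between these 2 lines. That spread was taken partly from the gene and partly from all genes, with 1.81 prior degrees of freedom.

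**Figure D1:**
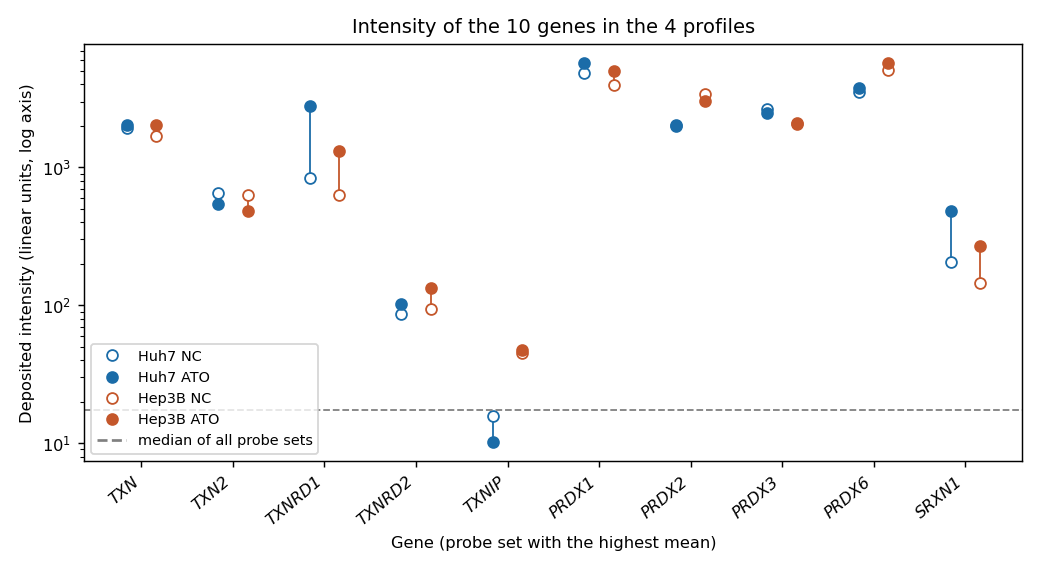
Deposited intensity of each of the 10 genes (y axis, linear units on a log axis) in the 4 profiles, from the probe set with the highest mean. Open circles are NC and filled circles ATO, lines join the 2 profiles of a cell line, and the dashed line marks the median probe set at 17.3. The NC and ATO points of TXNRD1 and SRXN1 are the farthest apart in each line, and TXNIP lies under the dashed line in Huh7. Heights are not comparable between genes, which have different probes.

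TXNRD1, the cytosolic thioredoxin reductase, was the gene of the system farthest from its negative control. Its probe set 201266_at had an intensity of 835 in Huh7 NC, 2781 in Huh7 ATO, 631 in Hep3B NC and 1316 in Hep3B ATO. Both ATO profiles were thus above both NC profiles, with Huh7 ATO the highest of the 4. ATO over NC was 3.33 in Huh7 and 2.08 in Hep3B. The log2 ratio averaged 1.40 ± 0.48 (SD, n = 2 lines), and limma gave a difference of 1.38 with a standard error of 0.21. Among all genes this ratio ranked 28 from the top in Huh7 and 223 in Hep3B. The other TXNRD1 probe set, 1561080_at, was dim, between 3.11 and 4.19 in all profiles, with ratios of 1.35 and 0.981. Averaged with it, TXNRD1 had ratios of 2.12 and 1.43, the latter under the threshold, so the count in both lines was then 1.

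SRXN1, the sulfiredoxin that returns some over-oxidised peroxiredoxins to their active state, had the next largest ratios. It was measured by a single probe set, 225252_at, with an intensity of 205 in Huh7 NC, 486 in Huh7 ATO, 145 in Hep3B NC and 267 in Hep3B ATO. Both ATO values were above both NC values, and the order of the 4 profiles, Huh7 ATO, Hep3B ATO, Huh7 NC and Hep3B NC, was that of TXNRD1. ATO over NC was 2.37 in Huh7 and 1.85 in Hep3B, which ranked 82 and 368 from the top among all genes. Its log2 ratio averaged 1.06 ± 0.25 (SD, n = 2 lines), and the limma difference was 1.0 with a standard error of 0.13. Under the alternatives listed with the processing, the ratio of SRXN1 ran from 2.27 to 2.37 in Huh7 and from 1.76 to 1.86 in Hep3B.

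The start-site sequences of these 2 genes are shown because the antioxidant response element is the best known route to their induction. RefSeq windows of 250 bases before to 50 after a transcript start (GRCh38.p14) were at hand for 7 of the 10 genes, 11 windows in all. The core of the element, TGACNNNGC, was sought on both strands. It was found in 13.3% of all 35116 windows and in 2 of the 11 windows, both of TXNRD1, at 99 and 8 bases before the upstream start and at 102 bases before the downstream start, counted to the first base of the match. The windows of TXN, TXNRD2, TXNIP, PRDX2, PRDX3 and SRXN1 held no match, which says only that these letters are not in those windows. In the sequences below, given 5′ to 3′ from 250 bases before to 10 bases after each start, capitals mark matches to the core on either strand. The arrays do not separate transcripts from the 2 starts of TXNRD1.

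TXNRD1 upstream start, chr12:104215529-104215788, plus strand: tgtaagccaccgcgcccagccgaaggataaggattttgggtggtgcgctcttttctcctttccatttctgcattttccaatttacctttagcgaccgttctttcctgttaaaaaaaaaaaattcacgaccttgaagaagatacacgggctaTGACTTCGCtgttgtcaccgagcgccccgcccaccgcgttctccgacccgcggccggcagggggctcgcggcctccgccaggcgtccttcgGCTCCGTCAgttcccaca

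TXNRD1 downstream start, chr12:104286782-104287041, plus strand: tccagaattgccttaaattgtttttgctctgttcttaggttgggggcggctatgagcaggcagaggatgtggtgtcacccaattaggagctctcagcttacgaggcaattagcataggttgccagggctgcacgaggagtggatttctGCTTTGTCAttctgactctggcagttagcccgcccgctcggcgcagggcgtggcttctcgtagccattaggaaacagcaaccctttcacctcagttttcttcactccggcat

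SRXN1, chr20:653191-653450, minus strand: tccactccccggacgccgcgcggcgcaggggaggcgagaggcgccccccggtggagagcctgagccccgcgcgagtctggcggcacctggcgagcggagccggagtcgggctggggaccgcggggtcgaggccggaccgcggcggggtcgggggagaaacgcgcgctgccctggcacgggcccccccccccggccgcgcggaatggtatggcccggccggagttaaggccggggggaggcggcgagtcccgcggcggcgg

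Of 3 other motifs sought in the same windows on both strands, the AP-1 site TGACTCA was in none of the 11, against 4.95% of all windows. The GC box GGGCGG was in 6 windows, of TXN, TXNRD1, TXNRD2, PRDX2 and PRDX3, against 45.0% of all windows. The E-box, sought only as the exact letters CACGTG, was in 1 window, of PRDX3, against 7.26% of all windows. A match is a description of the sequence and not a measured site.

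The genes with ratios nearest to those of TXNRD1 and SRXN1 were sought among 12725 other genes of at least median intensity, by the Euclidean distance of the 2 log2 ratios over the 4 profiles. For SRXN1 the nearest were MT1H, NQO1, NRCAM, ADGRG1 and SLC4A7. NQO1, a quinone reductase, lay at a distance of 0.02, with ratios of 2.35 (Huh7) and 1.87 (Hep3B). MT1H, a metallothionein with ratios of 2.37 and 1.83, is uncertain, since its probes may also catch other metallothioneins. TXNRD1 had no neighbour that close, and its nearest were FHL2, LIF, ARHGDIB, SPRY4 and GCNT3, at distances of 0.29 to 0.37. FHL2, an adaptor protein, had ratios of 2.73 and 2.0.

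**Figure D2:**
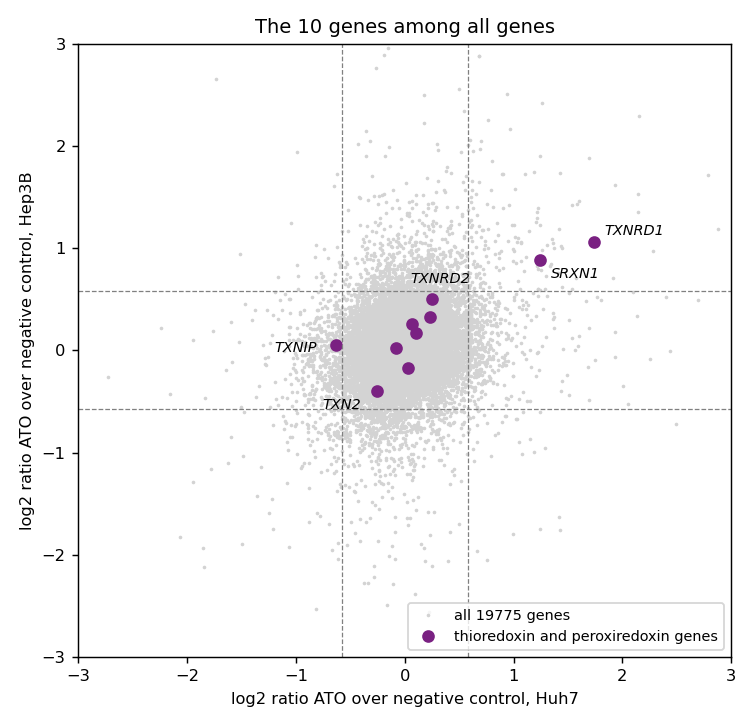
Log2 ratio of ATO over NC, with Huh7 on the x axis and Hep3B on the y axis. Grey points are all 19775 genes, of which 17 beyond ±3 are outside the axes, purple points are the 10 thioredoxin and peroxiredoxin genes, and dashed lines mark ratios of 1.5 and 0.67. TXNRD1 and SRXN1 are the only purple points past 1.5 in both lines, and TXN2 is the one below 0 in both.

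The other reductase and the 2 thioredoxins stayed within the thresholds. TXN, cytosolic thioredoxin, had an intensity of 1937 in Huh7 NC, 2029 in Huh7 ATO, 1700 in Hep3B NC and 2036 in Hep3B ATO (208864_s_at). Its ratio was 1.05 in Huh7 and 1.20 in Hep3B, with a limma adjusted p of 0.640. The second TXN probe set, 216609_at, pointed slightly the other way, with ratios of 0.972 and 0.910. TXN was thus within the thresholds in both lines by either probe set, unlike its reductase TXNRD1.

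The mitochondrial pair had different directions. TXN2, mitochondrial thioredoxin, was at 651 in Huh7 NC, 544 in Huh7 ATO, 633 in Hep3B NC and 479 in Hep3B ATO (209078_s_at), so both ATO profiles were below both NC profiles. Its ratios were 0.836 and 0.758, the log2 ratio averaging -0.33 ± 0.10 (SD, n = 2 lines), and its second probe set gave 0.844 and 0.834. TXN2 was the gene of the system with both probe sets, both lines and each alternative run below 1, though never below 0.67. TXNRD2, the mitochondrial reductase, was at 86.2 in Huh7 NC, 103 in Huh7 ATO, 93.4 in Hep3B NC and 132.5 in Hep3B ATO (211177_s_at). Its ratios were 1.19 and 1.42, both ATO values being above both NC values. The other TXNRD2 probe set, 210803_at, was dim in all profiles, with ratios of 1.09 and 0.876. The limma adjusted p was 0.506 for TXN2 and 0.510 for TXNRD2.

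By their brightest probe sets, all 4 peroxiredoxins were within the thresholds in both lines, as were 17047 of all 19775 genes. PRDX1, a cytosolic enzyme, was at 4842 in Huh7 NC, 5671 in Huh7 ATO, 3969 in Hep3B NC and 4990 in Hep3B ATO (208680_at). Its ratios of 1.17 and 1.26 were the highest of these 4 in each line, and its log2 ratio averaged 0.28 ± 0.07 (SD, n = 2 lines). Both ATO profiles of PRDX1 were above both NC profiles. PRDX6, the member that works with a single catalytic cysteine, was at 3522 and 3793 in Huh7 and at 5080 and 5717 in Hep3B, NC before ATO (200844_s_at). Its ratios were 1.08 and 1.13, and its second probe set gave 0.948 and 1.06. PRDX3, the mitochondrial enzyme, was at 2628 and 2492 in Huh7 and at 2063 and 2094 in Hep3B (201619_at). Its ratios were 0.948 and 1.02, on either side of 1, and its second probe set was dim, with ratios of 1.07 and 1.09.

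PRDX2, an abundant cytosolic peroxiredoxin, was read differently by its probe sets in Huh7. The brightest, 39729_at, was at 1993 in Huh7 NC, 2034 in Huh7 ATO, 3408 in Hep3B NC and 3034 in Hep3B ATO, with ratios of 1.02 and 0.890. The probe set 211658_at gave 1.48 and 0.831, 215067_x_at, whose probes may also catch other transcripts, 1.22 and 0.80, and 201006_at, close to the median intensity, 1.57 and 1.04. In Huh7 all 4 were above 1 but by different amounts, and in Hep3B 3 of the 4 were below 1. With the mean of the 4 probe sets, the ratios of PRDX2 were 1.30 (Huh7) and 0.885 (Hep3B).

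TXNIP, the inhibitor of thioredoxin and a gene known to follow glucose supply, was measured at low intensity. Its brightest probe set, 201010_s_at, was at 15.7 in Huh7 NC, 10.1 in Huh7 ATO, 45.3 in Hep3B NC and 47.0 in Hep3B ATO. The ratio of 0.645 in Huh7, the 1 ratio below 0.67 in the system, came from 2 values under the median probe set, and the ratio in Hep3B was 1.04. The probe set 201009_s_at gave 0.938 and 0.784, and 201008_s_at 1.19 and 0.865. The 3 probe sets of TXNIP did not share a direction in Huh7, and with their mean or with 16 added to each intensity the ratio there was 0.897 or 0.824. The limma adjusted p of TXNIP was 0.812.

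**Figure D3:**
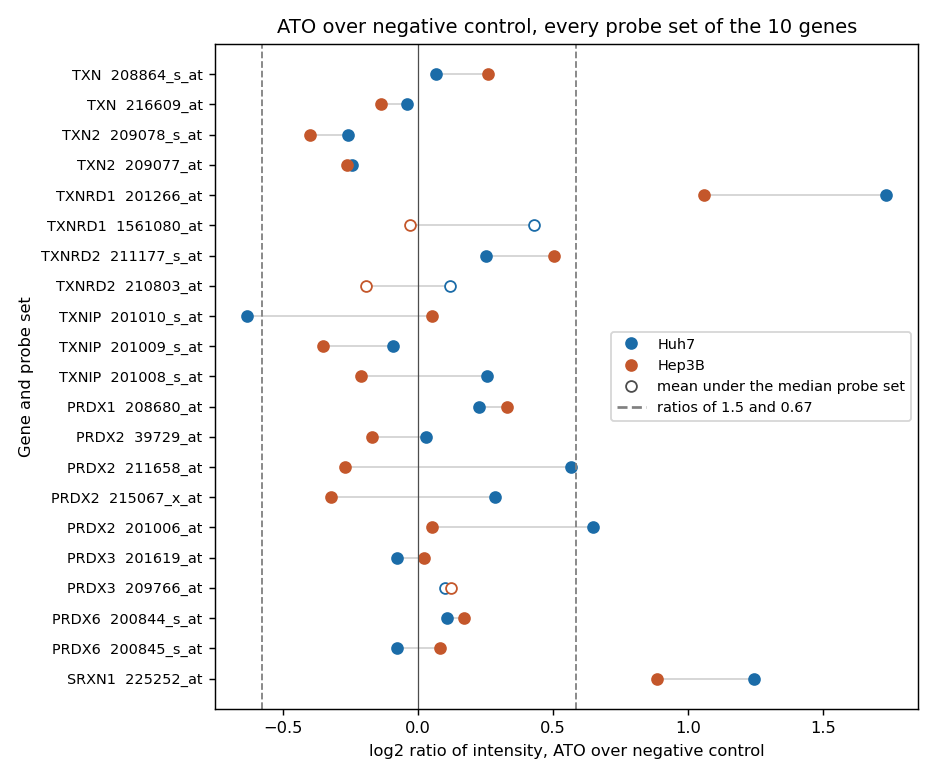
Log2 ratio of ATO over NC (x axis) for all 21 probe sets of the 10 genes (y axis), with blue points for Huh7 and orange points for Hep3B. Open points are the 3 dim probe sets, and dashed lines mark ratios of 1.5 and 0.67. The TXNRD1 and SRXN1 probe sets above the median lie right of 1.5 in both lines, the TXN2 points lie left of 0, and the probe sets of PRDX2 and TXNIP are spread in Huh7.

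Between the lines, by their brightest probe sets, TXNIP and 2 peroxiredoxins tended to be brighter in Hep3B and TXNRD1 and SRXN1 in Huh7. A gene was counted when Hep3B over Huh7 passed the same thresholds in both the NC and the ATO pair. TXNIP was the 1 gene of the 10 above 1.5 in both pairs, where 11.8% of all genes were, and 0 were below 0.67 in both, where 11.9% of all genes were. Its ratio of Hep3B over Huh7 was 2.89 in NC and 4.64 in ATO by 201010_s_at but 1.37 and 0.991 by 201008_s_at. PRDX2 was 1.71 times as bright in Hep3B in NC and 1.49 times in ATO by its brightest probe set. PRDX6 was 1.44 and 1.51 times by its brightest, each gene short of the threshold in 1 pair. The other PRDX2 probe sets gave 1.87, 1.40 and 1.44 in NC but 1.05, 0.921 and 0.950 in ATO. The second PRDX6 probe set, 200845_s_at, gave 1.74 and 1.94, past 1.5 in both pairs. TXNRD1 was brighter in Huh7, 1.32 times in NC and 2.11 times in ATO, and SRXN1 1.42 and 1.82 times. The log2 ratio of ATO over NC was larger in Huh7 than in Hep3B by 0.68 for TXNRD1 and by 0.36 for SRXN1, a difference that could not be tested with 1 profile per condition.

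Among other thioredoxin-fold proteins, glutaredoxins and glutathione reductase, few genes were past the thresholds. Of 15 measured genes of other thioredoxin-fold proteins, 0 were higher and 1 was lower in both lines, beside 0.804% and 0.587% of all genes. The list's median log2 ratios were -0.08 (Huh7) and 0.06 (Hep3B). The lower one was TMX4, a thioredoxin-like membrane protein of the endoplasmic reticulum, with ratios of 0.541 and 0.651, or 0.741 and 0.763 with the mean of its probe sets. PRDX5, TXNRD3 and TXNDC5 were not analysed here. Of 5 genes of glutaredoxins and glutathione reductase, 0 passed in both lines. GLRX, a cytosolic glutaredoxin, had ratios of 1.40 and 1.16, and with the mean of its probe sets it was past the threshold in Huh7, at 1.55. GSR, glutathione reductase, had ratios of 1.61 and 1.01. The list's medians were 0.27 and 0.22 (log2).

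Genes for proteins that thioredoxin serves had no ratio past a threshold. All 9 thioredoxin client genes, among them the ribonucleotide reductase subunits, were within the thresholds in both lines, as were 17047 of all 19775 genes. The clients' median log2 ratios were -0.01 in Huh7 and -0.02 in Hep3B. MSRB2, a mitochondrial methionine sulfoxide reductase, had the largest mean log2 ratio in size, with ratios of 1.17 and 1.09. Of 7 genes that make and insert selenocysteine, the residue of the reductases, 0 were higher in either line. SEPSECS, at 0.607, and SCLY, at 0.631, were lower in Huh7, and their ratios in Hep3B were 1.11 and 1.20. SEPHS2, the selenophosphate synthetase, had ratios of 0.701 and 0.942. The list's medians were -0.16 and -0.09 (log2), next to log2 ratios of 1.74 and 1.06 for TXNRD1 alone.

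The relatives of TXNIP and the peroxide enzymes outside the system were also mostly within the thresholds. Of 7 genes of alpha-arrestins and glucose-responsive factors, 1 was past a threshold, ARRDC4 at 1.53 in Hep3B, from dim values. ARRDC2, an alpha-arrestin, had ratios of 1.13 and 1.46. The list's medians were -0.07 and 0.28 (log2). Of 4 genes of superoxide dismutases and catalase, 0 passed in both lines, where 0.804% of all genes were higher and 0.587% lower. The medians were -0.01 and -0.09 (log2), or 0.20 (Huh7) and -0.19 (Hep3B) without SOD3, which was dim. SOD1, the cytosolic superoxide dismutase, had ratios of 1.15 and 1.52, and CAT, catalase, 0.864 and 0.768.

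Genes of glutathione synthesis and glutathione peroxidases were higher in both lines in 5 of 10 cases, compared with 2 of the 10 thioredoxin and peroxiredoxin genes. Over all genes the share was 0.804%. GCLC, the catalytic part of glutamate-cysteine ligase, had ratios of 2.09 and 2.07. GCLM, the modifier part of that ligase, had 2.15 and 3.30, the latter being 2.18 with the mean of its probe sets. SLC7A11, the cystine importer, had 1.96 and 4.48. GPX2, a glutathione peroxidase, had ratios of 7.37 and 2.27, the Huh7 NC value of 15.5 being under the median probe set, and the Huh7 ratio was 3.39 when its probe sets were averaged, or 4.14 with 16 added. GPX8, a peroxidase of the endoplasmic reticulum, had 2.97 and 1.63, both Hep3B values being under the median. In Hep3B it was under the threshold, at 1.36 with the mean of its probe sets and 1.24 with 16 added, so its place in the count is uncertain. The median log2 ratio of that list was 1.02 in Huh7 and 0.64 in Hep3B, and the difference between the lists was not tested. Of 6 genes for NRF2, its regulators and classical targets, NQO1 and HMOX1 were higher in both lines, where 0.804% of all genes were. The medians of these 6 were 0.50 and 0.45 (log2). NFE2L2, which encodes NRF2, had ratios of 0.992 and 0.980, whereas HMOX1, the heme-degrading enzyme, had 8.28 and 4.97. In each line, the ratios of TXNRD1 and SRXN1 were below that of HMOX1.

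**Figure D4:**
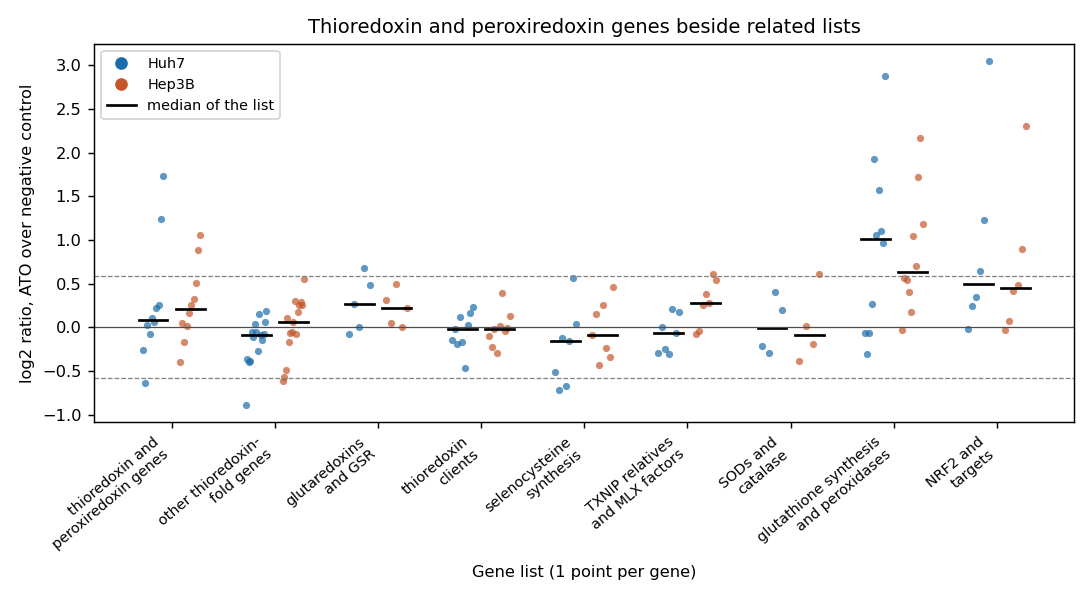
Log2 ratio of ATO over NC (y axis) for each gene of 9 lists (x axis), with blue points for Huh7, orange points for Hep3B, black bars for the median of a list and dashed lines at ratios of 1.5 and 0.67. The medians of the glutathione list, 1.02 and 0.64, are the highest of the 9, and those of the thioredoxin and peroxiredoxin genes are 0.09 and 0.22.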

How the data were processed

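Before deposit, the authors applied Robust Multi-array Average, took logs and normalized between arrays with simpleaffy, per the methods. What was deposited is 1 linear intensity for each probe set and condition. How these returned from logs, and whether a column averages several arrays, is not given in the sources used here. Columns were matched to conditions through the labels. One symbol was annotated to 41097 of 54675 probe sets, 1801 had more than 1 and 11777 none in the table used. For each of 19775 genes, the probe set with the highest mean intensity among those with 1 symbol was taken.

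Ratios were taken from the intensities, with the thresholds 1.5 and 0.67 that the study names. The test across lines was limma 3.58.1 in R 4.3.3 (lmFit and eBayes, Benjamini-Hochberg). The steps were tested on simulated data. Members and lists were chosen with earlier results of these data known. Beside the 10 genes, a list's genes are named if past the thresholds in both lines, or else the one with the largest absolute mean log2 ratio, as are the 5 nearest genes of each of the 10 past the thresholds in both lines. Cell type markers are named from their own lists, for the check of the labels. GSR, SEPSECS, SCLY, ARRDC4, CAT and NFE2L2 fall outside this rule and were chosen after seeing their values. Alternatives were the mean of probe sets, leaving out probe sets ending in _x_at (or also _s_at), genes of at least median intensity only, quantile normalization, centring on the median, 16 added before ratios, thresholds of 2 and 0.5, and other limma settings. The sequences are from RefSeq (GRCh38.p14).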

Additional observations from a re-analysis of the deposited data

Results flagged for a closer look

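Of the 10 genes, 3 had opposite directions in Huh7 and Hep3B, beside 42.9% of all genes. The log2 ratio in Huh7 minus that in Hep3B was -0.69 for TXNIP, 0.20 for PRDX2 and -0.10 for PRDX3. With 1 profile per condition these differences were not tested. With the mean of each gene's probe sets, TXNIP was below NC in both lines (ratios of 0.897 and 0.889) and PRDX3 above it in both (1.01 and 1.05), which left PRDX2. By 201010_s_at, the probe set used, the Huh7 values of TXNIP were under the median probe set. By 201009_s_at they were above it, at 24.8 (NC) and 23.2 (ATO). The other probe sets of TXNIP gave differences of the opposite sign, 0.26 and 0.46.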

How the results depend on the processing

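The ratios of TXN, TXN2, TXNRD2, PRDX1, PRDX2, PRDX3, PRDX6 and SRXN1 stayed on their side of the thresholds of 1.5 and 0.67 in both lines under every alternative that gave them a value, as did TXNRD1 in Huh7. With the mean of all probe sets, the number of the 10 genes higher in Hep3B and in both lines was 1, the number lower in Huh7 was 0, and the number brighter in Hep3B than in Huh7 was 2 (TXNIP and PRDX6). Over all genes, 427 were then higher and 393 lower in Huh7, 674 and 478 in Hep3B, and 108 and 74 in both lines, and 1830 were brighter in Hep3B. Without probe sets ending in _x_at or _s_at, TXNIP and PRDX6 had no value, and 0 of the 8 others were lower in Huh7 or brighter in Hep3B. Over all 17100 genes left, 555 were then lower in Huh7 and 1941 brighter in Hep3B. Of those 8, TXN was below NC in both lines and TXNRD2 had opposite directions. With quantile normalization or median centring, 2 of the 10 were brighter in Hep3B, beside 2306 or 2389 of all 19775 genes. PRDX2 joined TXNIP under the former (1.73 in NC and 1.58 in ATO) and under the latter (1.72 and 1.52). With 16 added to intensities, 0 of the 10 were lower in Huh7, and over all genes 296 were higher and 309 lower in Huh7, 564 and 520 in Hep3B, and 96 and 66 in both lines. With thresholds of 2 and 0.5, TXNRD1 alone was higher in Hep3B and in both lines, so that count was 1, 0 were lower in Huh7, and over all genes 154 were higher and 93 lower in Huh7, 259 and 180 in Hep3B, 40 and 15 in both lines, while 1317 were brighter and 1255 dimmer in Hep3B than in Huh7. The cause of these shifts was not tested. Limma called 8 genes without the offset, 9 with an intensity trend in the prior and 3 with dim genes left out, none of them among the 10, whose smallest adjusted p over the settings was 0.107, for TXNRD1. Leaving out a line leaves no residual degree of freedom, so it gives the other line's ratio alone. Low intensity limits TXNIP in Huh7 and the second probe sets of TXNRD1, TXNRD2 and PRDX3.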
